A study of Drosophila melanogaster with 8 samples.

Results

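A set of 172 long noncoding RNA genes (lncRNAs) of Drosophila melanogaster was well expressed in at least 1 of a pair of cell lines. They are the genes whose deposited name starts with lncRNA: and whose mean level was 5 TPM or more (transcripts per 1000000, counts scaled by length and library) over the 4 libraries of either line. The dosage compensation RNAs roX1 and roX2 were left out of the rule. The 172 genes were drawn from 1913 such lncRNA genes and from 17730 genes in all. The mean TPM in each line chose them, so their levels, and the counts of genes high in 1 line, are given as a description of the set.

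The libraries hold polyadenylated RNA from 4 separate flasks of ML-DmD17-c3 cells (D17-c3) and 4 of S2-DRSC cells. D17-c3 is a clonal line derived from larval imaginal discs, the epithelial primordia of adult appendages. S2-DRSC is a subline of S2, which came from embryos and resembles blood cells. The labels name no genotype, treatment or time for either line, and the 2 lines differ in tissue of origin, stage and culture history, which cannot be told apart here.

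Long noncoding RNAs are transcripts that carry no long open reading frame and often lie within, opposite or beside protein-coding genes. Some act in the nucleus as scaffolds, such as Hsromega, whose nuclear transcript gathers RNA-binding proteins into omega speckles and rises with heat shock. Others are the primary transcripts from which microRNAs or small nucleolar RNAs (snoRNAs) are cut, and for most Drosophila lncRNAs no role is known.

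Total expected counts per library ran from 76822506 to 110163692, and the lowest library count of a gene in its higher line ran from 11 to 234783, with a median of 315. Of the 8 listed plasmatocyte genes found, vkg and Col4a1, the type IV collagen genes, averaged 2.00 ± 0.535 and 3.96 ± 1.299 TPM in D17-c3, and 309.9 ± 13.4 and 604 ± 16.99 TPM in S2-DRSC (SD, n = 4 each). Hml, Pxn and eater were also lower in D17-c3, at 30.6 ± 9.60, 10.4 ± 1.414 and 33.4 ± 9.38 TPM, against 309.99 ± 15.8, 225 ± 38.3 and 50.2 ± 1.03 TPM in S2-DRSC. Other genes of the list went against this. Pvr averaged 361 ± 64.3 TPM in D17-c3 and 153 ± 6.87 TPM in S2-DRSC (log2 0.98, adjusted p = 1.13e-04), and srp 138 ± 21.6 TPM in D17-c3 and 94.4 ± 3.48 TPM in S2-DRSC (log2 0.32, adjusted p = 0.00410), while NimC1 did not pass (adjusted p = 0.809). The summed plasmatocyte list, of which Pvr and srp make up most in D17-c3, ran from 518 to 674 TPM in D17-c3 libraries, and from 1714 to 1774 TPM in S2-DRSC libraries. The summed imaginal disc list of 9 genes ran from 412 to 514 TPM in D17-c3, and from 71.4 to 85.0 TPM in S2-DRSC. The disc genes en, hh, ci and Egfr were high in D17-c3, whereas vg, nub, ap and Dll, which define wing or leg identity, were at or below 0.628 TPM there. The listed gene sd averaged 162 ± 18.4 TPM in D17-c3 and 76.9 ± 6.28 TPM in S2-DRSC. Against the list, ap was higher in S2-DRSC, at 2.79 ± 0.097 TPM, than in D17-c3, at 0.105 ± 0.073 TPM (log2 -4.69, adjusted p = 6.33e-07). The lists for neurons, muscle, fat body and for crystal cells and lamellocytes summed to at most 23.8 TPM in any library. D17-c3 replicate 2 stood apart from its line, with a mean correlation of 0.984 with the other 3, against 0.991 to 0.994 for the others.

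Levels among the 172 lncRNAs were very uneven. In D17-c3 the mean TPM had a median of 9.79 and a highest value of 5708, and in S2-DRSC a median of 5.80 and a highest value of 1666. Of the 172 genes, 12 reached 100 TPM in either line, while 68 lay between 5 and 10 TPM in their higher line. The set splits into 71 genes that passed 5 TPM in D17-c3 only, 36 in S2-DRSC only and 65 in both lines. Just inside the threshold were CR43488, CR44478 and CR44285, with 5.08, 5.05 and 3.40 TPM in D17-c3, and 0.455, 1.80 and 5.008 TPM in S2-DRSC. Just outside were CR32636, CR45670 and CR46204, with 4.95, 4.95 and 4.86 TPM in D17-c3, and 3.25, 4.95 and 3.26 TPM in S2-DRSC.

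**Figure D1:**
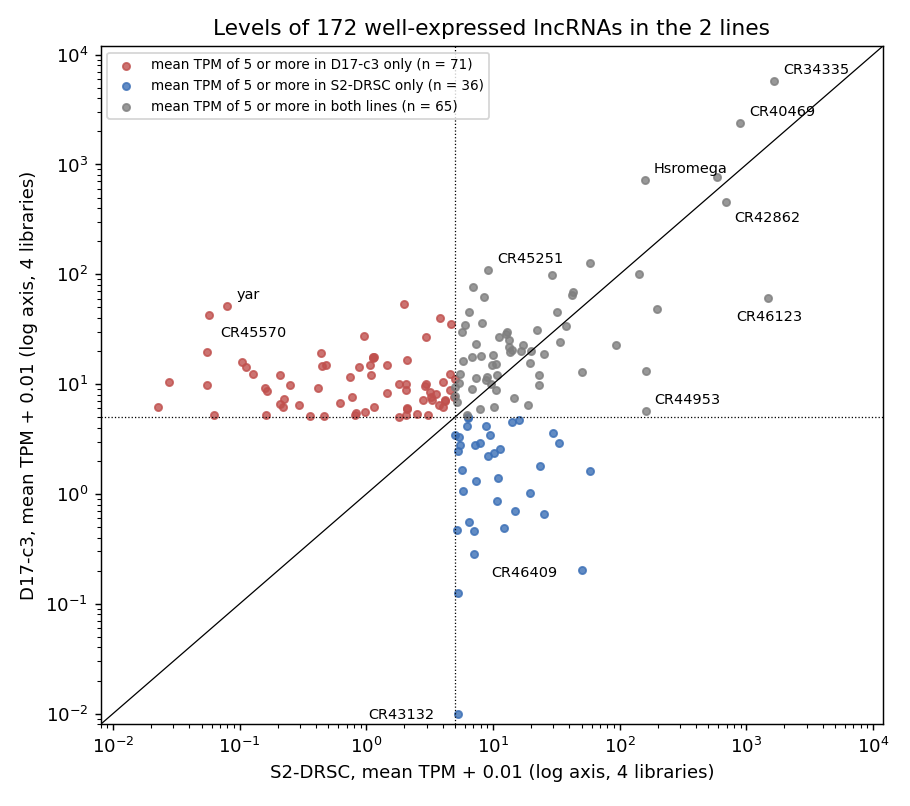
Mean TPM + 0.01 of the 172 lncRNAs in D17-c3 (vertical log axis) against S2-DRSC (horizontal log axis), 4 libraries per line, with dotted lines at the threshold of 5 TPM and a diagonal of equal level. CR34335 and CR40469 stand at the top right, CR46123 far below the diagonal, and CR43132 at 0 in D17-c3.

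The set took 1.16%, 1.46%, 1.45% and 1.01% of all TPM in the D17-c3 libraries (replicates 1 to 4), and 0.761%, 0.845%, 0.789% and 0.676% in the S2-DRSC libraries. The D17-c3 shares of TPM lay above all S2-DRSC shares. The shares of expected counts were in the other order, at 0.433% to 0.470% in D17-c3 and 0.494% to 0.553% in S2-DRSC. TPM divides counts by length, and the 2 most abundant members in D17-c3, CR34335 and CR40469, are very short. They made up 58.0% to 72.1% of the set's TPM in D17-c3, and 30.4% to 35.9% in S2-DRSC. Without them the set had 4359, 6131, 4040 and 3984 TPM in D17-c3, and 5023, 5415, 5318 and 4700 TPM in S2-DRSC. All D17-c3 libraries but replicate 2 then lay below all S2-DRSC libraries.

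The deposited gene lengths of the set had a median of 674 bases, against 601 for the other lncRNA genes and 1604 for protein-coding genes. The lengths ran from 201 to 11232 bases, and 17 genes had 300 or fewer. For 13 genes the effective length, the number of start positions a fragment can take, fell under 100 in a library, where TPM is very sensitive to the fragment length used. By the Ensembl annotation of BDGP6 (dm6), 76 of the 172 genes overlapped no other gene and 49 lay only in an intron or the span of one. Another 22 shared exon bases with a gene on the opposite strand and 25 with a gene on the same strand. No source used here says if reads were counted by strand, so for the last 2 classes reads of the partner may be included. By chromosome, 52 lay on 3L, 36 on 3R, 33 on X, 26 on 2L, 23 on 2R and 2 on 4. The X held 19.2% of the set and 12.2% of all lncRNA genes, and 2L held 15.1% and 27.1%.

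Across all 11606 genes tested with edgeR's quasi-likelihood test, 39.1% had a higher level in D17-c3 and 36.1% a higher level in S2-DRSC, 75.2% together (adjusted p under 0.05). All 172 lncRNAs entered this test, of which 91 (52.9%) passed with a higher level in D17-c3, 53 (30.8%) with a higher level in S2-DRSC and 28 in neither direction. In bulk RNA of a culture, fewer cells with a transcript and less of it per cell cannot be told apart. At 2-fold or more the counts were 73 (42.4%) and 42 (24.4%), against 25.6% and 17.4% of all tested genes. The rule used this contrast, since a gene high in 1 line enters whatever its level in the other, so nothing is read from these shares. The 369 other lncRNA genes tested had similar shares, 49.3% higher in D17-c3 and 28.5% higher in S2-DRSC. The median log2 fold change of D17-c3 over S2-DRSC was 0.66 in the set, 0.62 in the other tested lncRNAs and -0.10 in the 7643 other genes of 5 TPM or more in either line. In counts per 1000000 (CPM) all D17-c3 libraries lay above all S2-DRSC libraries for 87 of the 172 genes, and all S2-DRSC libraries above for 52. Libraries of the 2 lines did not overlap for 71.6% of all tested genes.

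The median over all tested genes was 0.04 on this scale, 0.21 with library totals alone and 0.25 on log2(TPM + 0.1). The share of calls that were higher in D17-c3 was 52.0% of all calls, and 62.9% on the TPM scale. Within the set it was 63.2%, and 66.0% on the TPM scale.

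Among the 65 lncRNAs above 5 TPM in both lines, 25 (38.5%) were higher in D17-c3 and 18 (27.7%) higher in S2-DRSC. Across all tested genes these shares were 39.1% and 36.1%. The other 22 passed in neither direction, and the median log2 fold change of the 65 was 0.26. At 2-fold or more the counts were 15 (23.1%) and 10 (15.4%), against 25.6% and 17.4% of all tested genes. Of the 71 genes above 5 TPM in D17-c3 only, 66 passed as higher there, and of the 36 above it in S2-DRSC only, 35 passed as higher there. For genes in these one-line groups the fold changes below are given without a p, since the threshold chose their direction.

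The most abundant lncRNA in both lines was CR34335 (X, 3545750 to 3546110, minus strand), which lies within the span of DIP-alpha, a cell surface immunoglobulin protein gene, on the same strand. It had 5035, 6061, 7490 and 4246 TPM in D17-c3 (replicates 1 to 4, as in all such series), and 1659, 2013, 1634 and 1358 TPM in S2-DRSC. Every D17-c3 library was above every S2-DRSC library, and the fitted log2 fold change was 1.54 ± 0.22 (SE, adjusted p = 1.21e-04). CR40469 (X, 122493 to 122706, plus strand), which overlaps no annotated gene, came next in D17-c3, with 2221, 2411, 2933 and 1891 TPM in D17-c3 and 932, 1021, 937 and 699 TPM in S2-DRSC. It too was higher in all D17-c3 libraries, by 1.15 ± 0.18 on the log2 scale (adjusted p = 2.57e-04). Their effective lengths ran from 85.4 to 91.4 and from 55.2 to 59.8, so their TPM values depend strongly on the fragment length assumed.

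CR43264 (X, 5831898 to 5832215, minus strand), within the span of CG15765 on the opposite strand, did not separate the lines. It had 656, 1330, 700 and 390 TPM in D17-c3, and 604, 581, 600 and 560 TPM in S2-DRSC. The D17-c3 libraries lay on both sides of the S2-DRSC ones, and the log2 difference was 0.11 ± 0.28 (adjusted p = 0.724). CR43144 (2L, 21657625 to 21658249), which overlaps no gene, was higher in D17-c3, with 112, 172, 123 and 100 TPM there and 55.4, 63.2, 57.2 and 56.0 TPM in S2-DRSC (log2 0.84 ± 0.14, adjusted p = 4.75e-04). CR42862 (3L, 224106 to 230964), which shares exon bases with CG33229, was lower in D17-c3, with 476, 344, 440 and 563 TPM there and 659, 755, 680 and 653 TPM in S2-DRSC (log2 -0.83 ± 0.16, adjusted p = 0.00113). The 4 libraries of each line kept apart for both genes.

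Hsromega (3R, 21296127 to 21317836, plus strand) is the heat shock gene whose nuclear transcript forms the omega speckles. It had 562, 1392, 418 and 506 TPM in D17-c3, and 152, 206, 178 and 98.8 TPM in S2-DRSC. All D17-c3 libraries lay above all S2-DRSC libraries, and replicate 2 of D17-c3 was the highest by far. The log2 fold change was 1.84 ± 0.36 (adjusted p = 0.00109), and 1.37 without that library (adjusted p = 1.34e-04). The deposited table has 7 transcripts for this gene, and the mean abundance-weighted length was 1427 bases in D17-c3 and 1473 bases in S2-DRSC. Both lengths are far below the span of the gene. The values here sum all its transcripts and do not separate the nuclear one from the others.

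The alphagamma-element lncRNA (CR32865; 3R, 12475336 to 12478267, minus strand) lies in the heat shock locus that also holds Hsp70 copies, and transposon sequence overlaps its exon. It had 53.2, 239.7, 46.8 and 55.7 TPM in D17-c3, and 28.6, 35.5, 28.5 and 23.4 TPM in S2-DRSC. The 2 lines did not overlap, but 1 library set much of the difference. The log2 fold change was 1.46 ± 0.47 (adjusted p = 0.0175), and fell to 0.63 without D17-c3 replicate 2 (adjusted p = 5.13e-04). Without S2-DRSC replicate 4 the adjusted p was 0.0511.

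Heat shock genes moved with these 2 RNAs. Of 16 listed genes 14 entered the test, of which 12 rose in D17-c3 and 1, Hsp70Ba, fell, with a median log2 fold change of 3.06. Across all tested genes 39.1% were higher and 36.1% lower in D17-c3. Hsp67Bc, a small heat shock protein gene, differed by 7.06 ± 0.97 (adjusted p = 1.08e-04) and Hsp23, another, by 5.35 ± 0.46 (adjusted p = 4.44e-06). In D17-c3 replicate 2 Hsp67Bc had 605.69 TPM, against a mean of 63.8 TPM in the other D17-c3 libraries and 1.175 TPM in S2-DRSC. For Hsp23 these values were 18898, 6189 and 187 TPM. The median and both fold changes include that library. Hsp70Ba had 0.135 ± 0.106 TPM in D17-c3 and 7.76 ± 4.29 TPM in S2-DRSC, and the near-identical Hsp70 copies may exchange reads. The summed list was 12811, 39318, 10362 and 12719 TPM in the D17-c3 libraries, and 2266, 2781, 2059 and 1444 TPM in the S2-DRSC libraries. The part of the heat shock genes in the levels of Hsromega and the alphagamma-element RNA was not tested.

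Genes for the proteins that Hsromega binds showed much smaller differences. Of 12 tested genes for omega speckle proteins, 3 were higher in D17-c3 and 6 higher in S2-DRSC. Across all tested genes 39.1% and 36.1% were, 75.2% together, so nothing particular to this list is read from its counts. The median log2 fold change was -0.19, and none reached 2-fold, where 25.6% and 17.4% of all tested genes did. TBPH and Hrb98DE, which encode RNA-binding proteins, were higher in D17-c3 by 0.69 ± 0.06 (adjusted p = 4.37e-06) and 0.57 ± 0.07 (adjusted p = 5.90e-05). Lower in D17-c3 were nonA, by -0.81 ± 0.10 (adjusted p = 5.50e-05), and Iswi, a chromatin remodelling ATPase gene, by -0.67 ± 0.07 (adjusted p = 1.19e-05). The median is about as large as the shift that another scaling makes, and no direction is drawn from it.

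Genes for the machinery that degrades or exports nuclear RNAs went in both directions. So did all tested genes, of which 39.1% were higher in D17-c3 and 36.1% higher in S2-DRSC. Of 17 tested genes of the exosome and RNA decay list, 4 were higher in D17-c3 and 11 higher in S2-DRSC, with a median log2 fold change of -0.42. Upf3 and Smg5, nonsense-mediated decay factors, were higher in D17-c3 by 1.12 ± 0.07 (adjusted p = 4.17e-07) and 0.80 ± 0.12 (adjusted p = 1.87e-04). Upf1, the helicase of the same pathway, and Csl4, an exosome subunit, were lower in D17-c3, at -1.20 ± 0.06 (adjusted p = 9.25e-08) and -1.03 ± 0.11 (adjusted p = 1.55e-05). Of 12 tested genes for RNA export and cap or poly(A) binding, 3 were higher in D17-c3 and 5 higher in S2-DRSC, with a median of -0.17. Here Nxt1, an mRNA export factor, was 0.95 ± 0.15 (adjusted p = 2.44e-04) and pAbp, the cytoplasmic poly(A)-binding protein gene, 0.38 ± 0.12 (adjusted p = 0.0197). The THO complex genes tho2 and thoc7 were at -1.09 ± 0.09 (adjusted p = 2.25e-06) and -0.84 ± 0.07 (adjusted p = 3.76e-06). With lists this short, nothing particular to them is read from the counts. The list medians also depend on the scaling, which moved the median of all tested genes from 0.04 to 0.25 on log2(TPM + 0.1).

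Some lncRNAs abundant in both lines still differed by more than 4-fold. CR46123 (3R, 1366234 to 1366601, minus strand), which lies opposite to and within the span of Myo81F, a myosin heavy chain gene, was the second most abundant member in S2-DRSC. It had 65.5, 64.7, 51.1 and 63.5 TPM in D17-c3, and 1416, 1612, 1622 and 1328 TPM in S2-DRSC. All libraries of D17-c3 lay far below those of S2-DRSC, at a log2 fold change of -4.87 ± 0.09 (adjusted p = 3.30e-10). CR44953 (3R, 29755190 to 29759040), which overlaps no gene, had 6.59, 6.0, 4.38 and 5.68 TPM in D17-c3, and 169, 185, 161 and 125 TPM in S2-DRSC. This was the largest difference of the 65 genes above 5 TPM in both lines, at -5.07 ± 0.14 (adjusted p = 3.32e-09). CR43883 (3L, 820759 to 821512) followed with 13.0, 9.35, 15.8 and 14.2 TPM in D17-c3, and 161, 160, 165 and 164 TPM in S2-DRSC (log2 -3.86 ± 0.20, adjusted p = 1.50e-07). CR45018 (X, 13304005 to 13308004) averaged 48.3 ± 8.76 TPM in D17-c3 and 196 ± 21.3 TPM in S2-DRSC (log2 -2.14 ± 0.11, adjusted p = 1.00e-07), but it shares exon bases with IP3K2, an inositol trisphosphate kinase gene, on the same strand.

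In the other direction, CR45251 (3L, 11349395 to 11349743) had 112, 69.0, 132 and 120 TPM in D17-c3, and 8.52, 8.25, 9.97 and 9.79 TPM in S2-DRSC. The lowest D17-c3 library was far above the highest S2-DRSC library, with a log2 fold change of 3.33 ± 0.26 (adjusted p = 2.19e-06). CR44127 (2R, 5967397 to 5967746) had 69.4, 46.05, 122 and 69.4 TPM in D17-c3, and 7.22, 4.70, 5.24 and 10.8 TPM in S2-DRSC (log2 3.50 ± 0.39, adjusted p = 2.34e-05). CR43958 (4, 557025 to 557854) averaged 62.5 ± 5.39 TPM in D17-c3 and 8.495 ± 1.02 TPM in S2-DRSC (log2 2.64 ± 0.15, adjusted p = 2.60e-07), and shares exon bases with the DNA glycosylase gene Tdg. CR45334 (2L, 21929064 to 21931698), with no overlapping gene, averaged 45.4 ± 8.99 TPM in D17-c3 and 6.42 ± 0.814 TPM in S2-DRSC (log2 2.57 ± 0.12, adjusted p = 9.06e-08). None of these 4 had overlapping libraries between the lines.

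**Figure D2:**
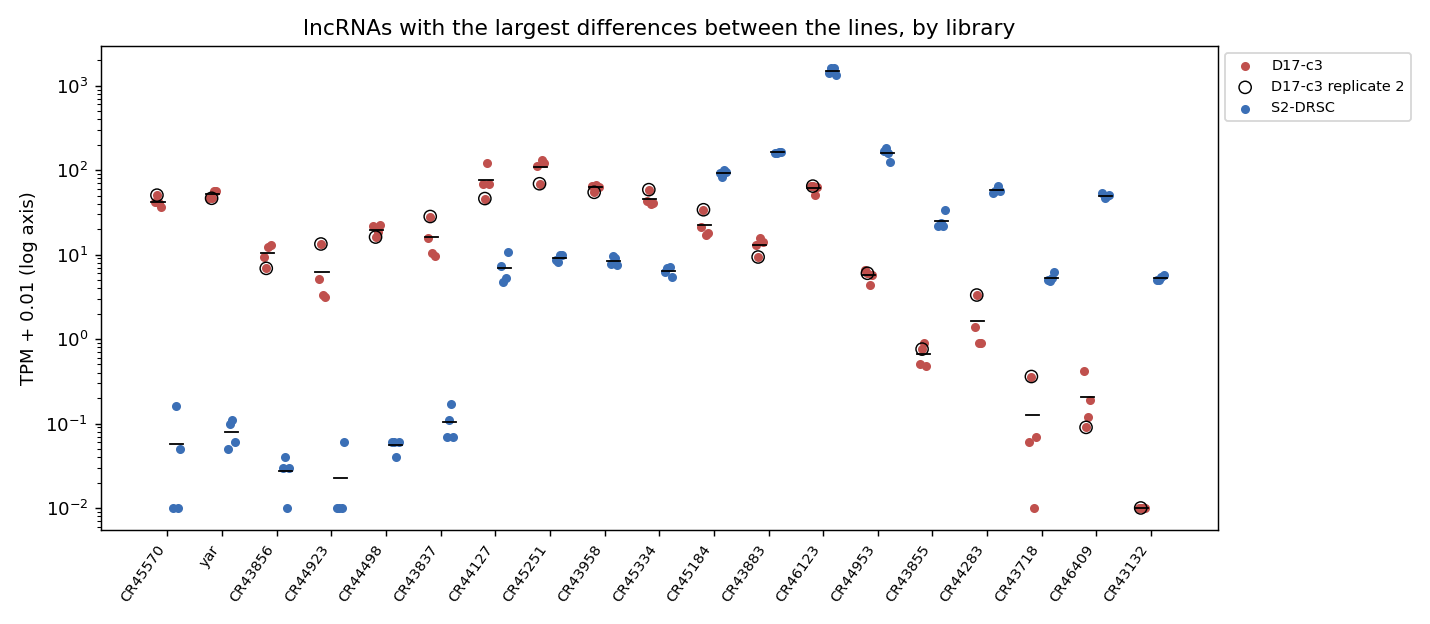
TPM + 0.01 on a log axis in each library for the lncRNAs with the largest fitted differences, D17-c3 in red and S2-DRSC in blue, black bars for line means and a circle around D17-c3 replicate 2. No gene shown has overlapping libraries between the lines, and CR43132 lies at 0 in all 4 D17-c3 libraries.

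Among lncRNAs above 5 TPM in D17-c3 only, the largest fitted difference was that of CR45570 (3R, 30404429 to 30404989, plus strand), which overlaps no gene but has roo transposon sequence within its span. It had 41.8, 50.5, 41.1 and 36.5 TPM in D17-c3, and 0, 0.15, 0 and 0.04 TPM in S2-DRSC (log2 9.37 ± 0.47). S2-DRSC was thus at or next to 0, and the fitted value became 11.11 without S2-DRSC replicate 2. The lncRNA yar (X, 362399 to 367072, plus strand) lies between yellow and achaete, within the span of CG32816 on the opposite strand. This lncRNA has been tied to sleep regulation in flies, and had 46.6, 46.4, 57.0 and 56.7 TPM in D17-c3. In S2-DRSC it had 0.04, 0.09, 0.1 and 0.05 TPM, a log2 difference of 9.18 ± 0.26. CR44498 (X, 6001511 to 6005713) had 21.7, 16.1, 18.7 and 22.5 TPM in D17-c3, and 0.05, 0.05, 0.03 and 0.05 TPM in S2-DRSC (log2 8.60 ± 0.23). These 3 were even across the D17-c3 libraries, within 1.5-fold of each other.

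CR43856 (2L, 15011815 to 15012667) had 9.31, 6.86, 12.3 and 12.9 TPM in D17-c3 and 4 counts in S2-DRSC in all, a ratio of 456 with a 95% counting interval of 178 to 1677. CR44923 (3R, 4718589 to 4719399), whose span holds gtwin and gypsy12 transposon sequence, had 5.09, 13.3, 3.30 and 3.11 TPM in D17-c3 and 2 counts in S2-DRSC in all, a ratio of 504.3 with an interval of 139 to 4170. Its fitted log2 difference of 8.62 was 8.02 without D17-c3 replicate 2 and 10.96 without S2-DRSC replicate 4. CR43837 (X, 6995882 to 6997799) had 15.7, 28.2, 10.3 and 9.73 TPM in D17-c3, and 0.06, 0.1, 0.16 and 0.06 TPM in S2-DRSC (log2 7.13 ± 0.44). The last 2 were highest in D17-c3 replicate 2. In all, 9 of the 172 lncRNAs averaged under 0.1 TPM in their lower line.

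Other named lncRNAs of D17-c3 were less extreme. The lncRNA noe (3L, 17400272 to 17401348, minus strand), within the span of the transporter gene blot on the same strand, had 22.1, 63.0, 11.1 and 12.7 TPM in D17-c3. It had 1.06, 1.17, 0.680 and 0.880 TPM in S2-DRSC, a log2 difference of 4.53 ± 0.55, and of 3.79 without D17-c3 replicate 2. CRG (3R, 21783540 to 21786208), a regulator of the neighbouring scaffold protein gene CASK in flies, had 9.52, 7.54, 6.42 and 6.74 TPM in D17-c3, and 3.36, 2.95, 3.69 and 2.96 TPM in S2-DRSC (log2 0.98 ± 0.13). It shares exon bases with CASK on the same strand, so reads of the 2 genes may be exchanged.

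Among lncRNAs above 5 TPM in S2-DRSC only, CR43132 (X, 15689490 to 15691146, plus strand) had 0 counts in all 4 D17-c3 libraries, and 5.01, 5.05, 5.39 and 5.74 TPM in S2-DRSC. Against a floor of 3 counts per library, it was at least 34.6-fold lower in D17-c3. CR46409 (2R, 11086294 to 11086898), within CG43188 on the same strand and opposite to luna, had 0.41, 0.08, 0.11 and 0.18 TPM in D17-c3, and 53.3, 47.3, 48.9 and 50.4 TPM in S2-DRSC. Its log2 difference was -8.20 ± 0.32, and -8.88 without D17-c3 replicate 1. CR44283 (2R, 9161484 to 9161998) had 1.39, 3.31, 0.900 and 0.880 TPM in D17-c3, and 53.1, 56.8, 64.8 and 57.3 TPM in S2-DRSC (log2 -5.45 ± 0.36). The S2-DRSC libraries were close to each other for these 3 genes, while the D17-c3 values near 0 spread more in relative terms.

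CR43718 (2L, 396120 to 396571) had 0.05, 0.35, 0 and 0.06 TPM in D17-c3, and 4.96, 4.87, 5.22 and 6.18 TPM in S2-DRSC. Its log2 difference of -5.76 ± 0.52 became -7.16 without D17-c3 replicate 2. CR43855 (2L, 8590370 to 8594489), opposite to and within Sema1a, had 0.490, 0.750, 0.900 and 0.470 TPM in D17-c3, and 21.8, 23.5, 21.6 and 33.6 TPM in S2-DRSC (log2 -5.34 ± 0.30). With CR44953, these are the 6 members with the largest differences in favour of S2-DRSC.

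Of the 172 lncRNAs, 10 contain an annotated small RNA on the same strand, 8 of them microRNAs and 2 snoRNAs. These genes were picked by annotation after their values were seen. Polyadenylated RNA holds what is left of such transcripts, not the small RNAs themselves. CR42491 (X, 762615 to 763810), which holds a snoRNA and shares exon bases with the ribosomal protein gene RpL22, had 96.4, 99.6, 102 and 108 TPM in D17-c3, and 141, 130, 149 and 151 TPM in S2-DRSC (log2 -0.74 ± 0.10, adjusted p = 6.79e-05). CR45184 (3L, 826720 to 830190), which holds 5 snoRNAs and shares exon bases with the splicing factor gene Sf3b3, had 21.5, 33.9, 17.1 and 17.97 TPM in D17-c3, and 91.3, 84.0, 102 and 94.9 TPM in S2-DRSC (log2 -2.30 ± 0.17, adjusted p = 1.39e-06). Both snoRNA hosts were lower in every D17-c3 library.

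The microRNA hosts went in both directions. CR43334 (3L, 628435 to 643900), which holds the growth-promoting microRNA bantam, had 6.57, 3.49, 6.55 and 7.94 TPM in D17-c3, and 10.3, 11.7, 10.1 and 8.80 TPM in S2-DRSC. Its TPM libraries did not overlap, yet the test on counts gave a log2 difference of -0.21 ± 0.24 (adjusted p = 0.428), while TPM also divides by a length that differed between the lines for this gene (14013 bases in D17-c3 and 8452 bases in S2-DRSC on average). On log2(TPM + 1) the difference was -0.69 with an adjusted p of 0.0131 by limma. CR31044 (3R, 29214562 to 29219667), which holds mir-279 and mir-996, had 6.87, 6.17, 5.75 and 4.79 TPM in D17-c3, and 7.58, 7.35, 6.74 and 9.96 TPM in S2-DRSC. Those libraries overlapped (log2 -0.37 ± 0.17, adjusted p = 0.0648). CR46194 (2R, 12169558 to 12171706), which holds the pair mir-281-1 and mir-281-2, had 10.9, 13.3, 7.91 and 8.76 TPM in D17-c3, and 5.15, 5.98, 5.04 and 5.18 TPM in S2-DRSC (log2 0.70 ± 0.13, adjusted p = 0.00101).

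The other 4 microRNA hosts beside Hsromega were above 5 TPM in 1 line. CR43459 (3R, 10093761 to 10101356), which holds mir-34 and mir-277, averaged 2.34 ± 1.08 TPM in D17-c3 and 10.2 ± 0.935 TPM in S2-DRSC (log2 -2.76 ± 0.14). CR44206 (2R, 13329352 to 13344808), which holds mir-184, averaged 2.93 ± 1.07 TPM in D17-c3 and 7.89 ± 0.205 TPM in S2-DRSC (log2 -1.70 ± 0.18). Neither overlapped between the lines. CR43836 (X, 8972908 to 9048991), which holds mir-31b, averaged 6.24 ± 1.72 TPM in D17-c3 and 0.210 ± 0.0424 TPM in S2-DRSC (log2 4.72 ± 0.31). CR43857 (2L, 7423820 to 7425932), which holds mir-275, had 6.06, 21.95, 3.02 and 3.05 TPM in D17-c3, and 3.32, 3.59, 3.07 and 2.68 TPM in S2-DRSC. It entered the set through D17-c3 replicate 2, and its log2 difference of 0.85 ± 0.54 was -0.11 without that library.

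**Figure D3:**
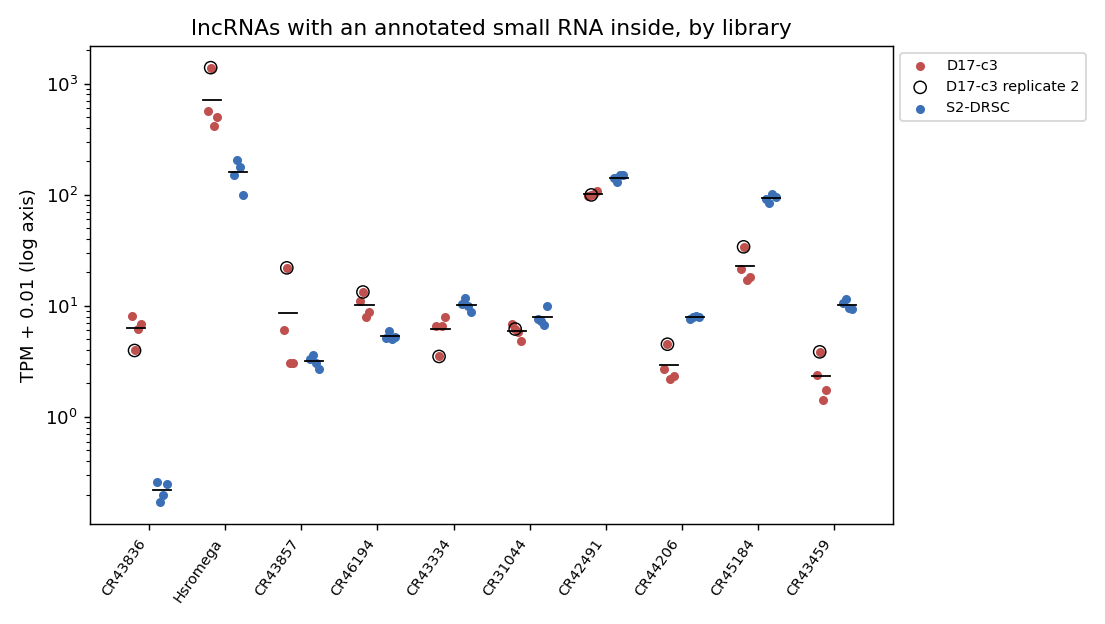
TPM + 0.01 on a log axis in each library for the 10 lncRNAs with an annotated microRNA or snoRNA inside, D17-c3 in red and S2-DRSC in blue, ordered by fold change, with bars for line means and a circle around D17-c3 replicate 2. The libraries separate for CR43836 at the left and CR43459 at the right, and CR43857 is high in D17-c3 replicate 2 alone.

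The deposited length of a gene is the mean of its transcripts' lengths weighted by their abundance, so a gene with several transcripts can change length between the lines. It varied between libraries, with TPM above 0 in all 8, for 6124 genes, of which 1.29% were longer in D17-c3 and 0.816% longer in S2-DRSC by 1.2-fold or more at an adjusted p under 0.05 (limma). Of the 172 lncRNAs, 49 have several transcripts and 47 could be tested. CR43334, the bantam host, had a ratio of D17-c3 over S2-DRSC length of 1.66 (log2 0.73 ± 0.05, adjusted p = 6.66e-05). CR43656 (X, 22870267 to 22872158), opposite CG42346, averaged 1187 bases in D17-c3 and 805 bases in S2-DRSC, a ratio of 1.47 (log2 0.56 ± 0.01, adjusted p = 2.50e-07). The test on its counts did not pass (log2 0.14 ± 0.14, adjusted p = 0.358). Counts are not divided by length, so length and level cannot be told apart in that value. In the other direction, CR46258 (2L, 490835 to 492649), which shares exon bases with ush, a cofactor of GATA factors, averaged 1498 bases in D17-c3 and 1815 bases in S2-DRSC, a ratio of 0.823 (adjusted p = 0.00998). The last call was lost without D17-c3 replicate 2 or without replicate 4.

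The libraries of D17-c3 differed from each other more than those of S2-DRSC did over these lncRNAs. Of the 136 members with a mean of 5 TPM or more in D17-c3, 19 (14.0%) were at least 2-fold above the mean of the other 3 libraries in replicate 2, and 9 (6.62%) at least 2-fold below it. Of 7343 other genes at that level, 3.76% were as far above and 2.40% as far below. The members' levels in D17-c3 helped choose them, so this difference is a description. In replicates 1, 3 and 4, the numbers 2-fold above were 0, 2 and 0, and 2-fold below 1, 11 and 9. In S2-DRSC, over 101 members, 0 were 2-fold above in any library, and 1 was 2-fold below, in replicate 4.

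Beside the heat shock RNAs, genes high in D17-c3 replicate 2 included CR43857 at 5.43 times the mean of the other 3 libraries, noe at 4.12 times and CR44316 at 4.08 times. CR44316 (2R, 12320594 to 12320912), named after its values were seen, had 46, 124.5, 25.8 and 19.8 TPM in D17-c3, and 1.39, 1.90, 1.84 and 2.71 TPM in S2-DRSC. Its log2 difference was 4.44 ± 0.60 and 3.73 without replicate 2. All D17-c3 libraries of CR44316 were still far above S2-DRSC. The summed heat shock list was highest in the same library, at 39318 TPM, and its part in these levels was not tested.

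**Figure D4:**
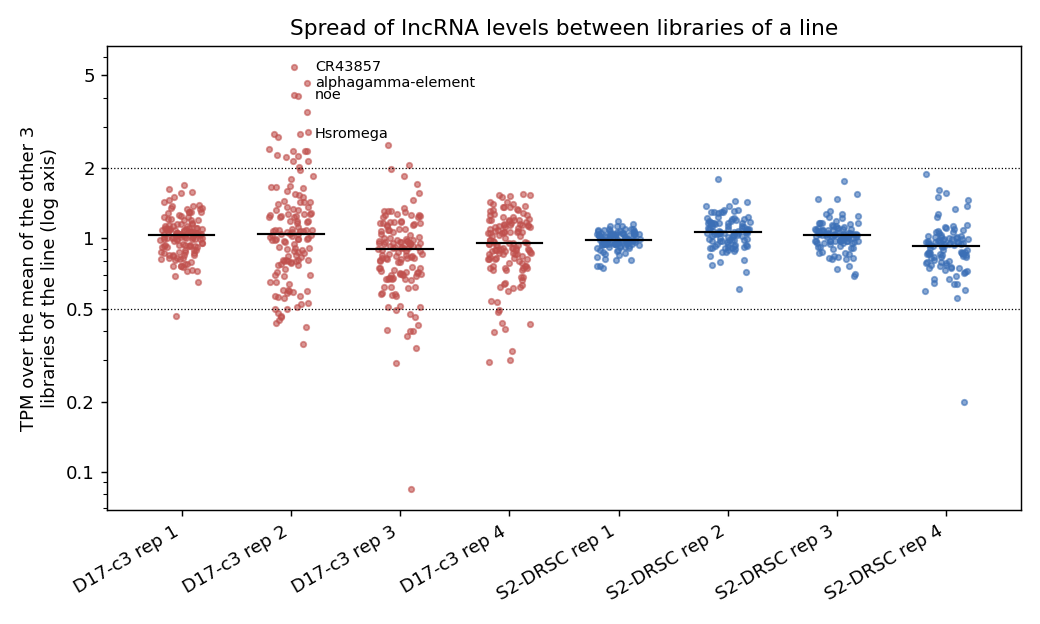
Each lncRNA's TPM in a library over the mean of the other 3 libraries of its line (log axis), for the 136 lncRNAs of 5 TPM or more in D17-c3 (red) and the 101 in S2-DRSC (blue), with medians as bars and dotted lines at 2-fold. D17-c3 replicate 2 has 19 genes above the upper line, among them CR43857, the alphagamma-element RNA, noe and Hsromega.

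The differences of lncRNAs and of their nearest protein-coding genes were correlated across genes. Each of the 172 lncRNAs was paired with the nearest tested protein-coding gene, and 84 overlapped the span of that gene. Across the 172 pairs the log2 fold changes had a Pearson r of 0.50 and a Spearman rho of 0.52, and 112 pairs (65.1%) had the same sign. Pairs come from the same 8 libraries and are not independent. The membership rule also used the lncRNA levels, and 71 and 36 members passed it in 1 line only. This widens the range of their fold changes and can raise a correlation. For the 76 lncRNAs that overlap no gene, which share no bases with an annotated neighbour, r was 0.63, rho 0.65 and 71.1% had the same sign. For the 84 that overlap the span of their nearest gene, r was 0.32, rho 0.44 and 60.7% had the same sign. Across 10523 tested protein-coding genes and their own nearest protein-coding gene, r was 0.42, rho 0.35 and 62.3% had the same sign. Those genes were not chosen by such a rule, so their coefficients are no matched comparison.

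Of the 40 lncRNAs with a log2 fold change of 3 or more, 36 had a neighbour of the same sign and 32 had a neighbour called higher in D17-c3, where 39.1% of all tested genes were. The neighbours' median log2 fold change was 1.63. Of the 20 lncRNAs at -3 or less, 16 had a neighbour of the same sign and 13 had a neighbour called higher in S2-DRSC, against 36.1% of all tested genes. The median of these neighbours was -0.75. These lncRNAs were picked by their fold change, and protein-coding genes also correlated with their nearest gene (r 0.42). The shares over all tested genes are thus no matched comparison, and nothing particular to lncRNAs is read from them.

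The neighbours of the 12 lncRNAs with the largest differences were of 3 kinds. Some moved as far as the lncRNA. CG4766 lies 714 bases from CR44498 on the opposite strand and averaged 115.1 ± 18.8 TPM in D17-c3 and 0.155 ± 0.010 TPM in S2-DRSC (log2 9.30 ± 0.21, adjusted p = 9.64e-10). CG8046, 39 bases from CR44283 on the opposite strand, averaged 3.42 ± 1.73 TPM in D17-c3 and 169 ± 9.69 TPM in S2-DRSC (log2 -5.89 ± 0.26, adjusted p = 5.38e-08).

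Others moved in the same direction by less. Inx2, which encodes a gap junction innexin, lies 873 bases from CR43837 and averaged 305 ± 35.3 TPM in D17-c3 and 19.1 ± 1.92 TPM in S2-DRSC (log2 3.74 ± 0.10, adjusted p = 2.32e-09). Nep2, a neprilysin peptidase gene 59 bases from CR44923, was at 3.52 ± 0.28 (adjusted p = 2.39e-06), and CG2217, 13778 bases from CR45570, at 4.32 ± 0.21 (adjusted p = 8.17e-08). On the S2-DRSC side, CG4213 next to CR43718 was at -2.63 ± 0.35 (adjusted p = 8.83e-05), yata next to CR44953 at -1.77 ± 0.16 (adjusted p = 6.50e-06), and Sema1a, a semaphorin guidance gene around CR43855, at -0.78 ± 0.17 (adjusted p = 0.00205). CG15599 lies 633 bases from CR43132, which was at least 34.6-fold lower in D17-c3, and was at -4.56 ± 0.46 (adjusted p = 1.34e-05), with only 0.0150 TPM in D17-c3 and 0.300 TPM in S2-DRSC on average.

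The remaining kind did not follow the lncRNA. Rnmt, the mRNA cap methyltransferase gene 51 bases from CR43856, averaged 13.9 ± 1.47 TPM in D17-c3 and 11.5 ± 0.381 TPM in S2-DRSC (log2 0.02 ± 0.07, adjusted p = 0.838). For luna, a KLF-type transcription factor gene around CR46409, the values were 22.4 ± 3.32 TPM in D17-c3 and 22.3 ± 1.60 TPM in S2-DRSC (log2 -0.22 ± 0.11, adjusted p = 0.0830). CG32816, in whose span yar lies on the opposite strand, went the other way, at 0.273 ± 0.0854 TPM in D17-c3 and 0.903 ± 0.193 TPM in S2-DRSC (log2 -1.99 ± 0.26, adjusted p = 7.32e-05). The pairing takes only the nearest gene, so yellow and achaete were not looked at for yar.

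Further pairs, chosen after their values were seen, join lncRNAs to regulatory genes high in D17-c3. CR44499 (X, 6013708 to 6014019) had 9.94, 10.2, 11.1 and 8.17 TPM in D17-c3, and 0, 0, 0 and 0.180 TPM in S2-DRSC. It lies 527 bases from mab-21, which averaged 165 ± 20.2 TPM in D17-c3 and 0.230 ± 0.0283 TPM in S2-DRSC (log2 9.23 ± 0.19, adjusted p = 7.69e-10). CR43644 (3R, 26020479 to 26021076) averaged 9.28 ± 0.981 TPM in D17-c3 and 0.147 ± 0.0506 TPM in S2-DRSC. It lies 747 bases from E(spl)m3-HLH, a bHLH repressor gene that Notch signalling induces, with 962 ± 270 TPM in D17-c3 and 5.21 ± 1.04 TPM in S2-DRSC (log2 7.29 ± 0.32, adjusted p = 4.81e-08). CR44281 (2R, 8650697 to 8651496) lies opposite to and within ptc, the Hedgehog receptor gene, and averaged 5.26 ± 0.832 TPM in D17-c3 and 0.153 ± 0.0435 TPM in S2-DRSC. The receptor gene itself averaged 70.3 ± 14.9 TPM in D17-c3 and 22.1 ± 1.06 TPM in S2-DRSC (log2 1.43 ± 0.15, adjusted p = 1.52e-05). In these pairs both RNAs were higher in D17-c3.

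**Figure D5:**
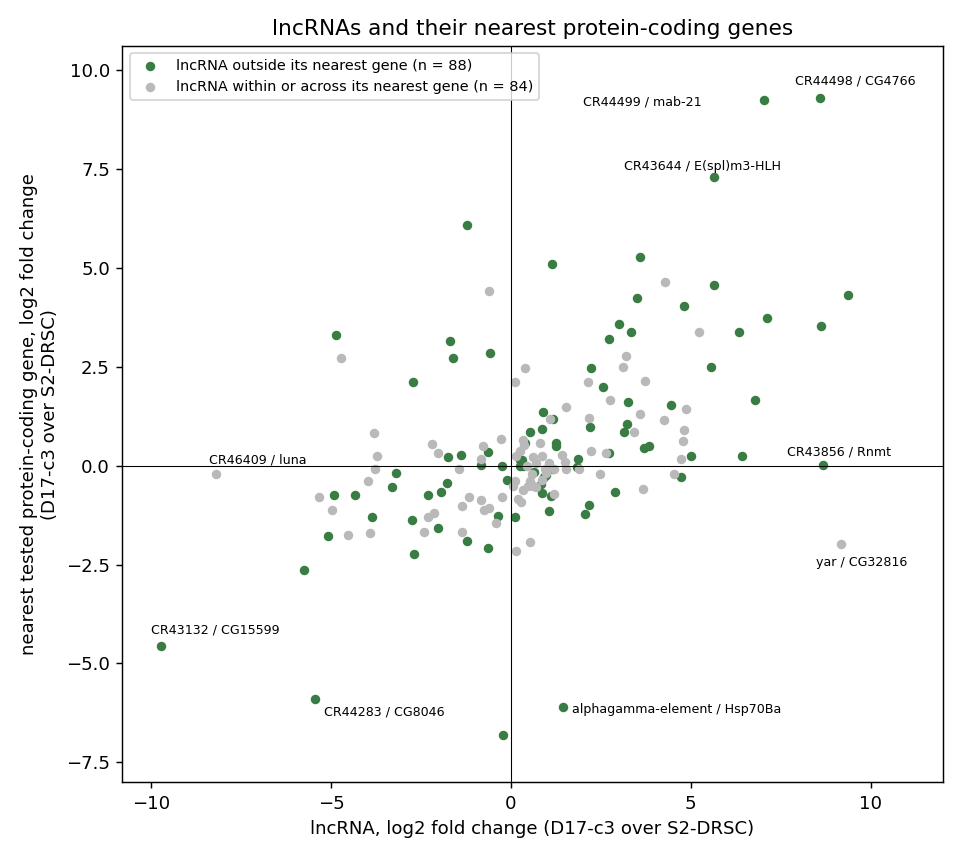
Fitted log2 fold change (D17-c3 over S2-DRSC) of the nearest tested protein-coding gene against that of each of the 172 lncRNAs, green for 88 lncRNAs outside that gene and grey for 84 within or across it. Most large differences fall in the lower left and upper right, with yar and the alphagamma-element RNA among the exceptions. The fitted value of CR43132, with 0 counts in D17-c3, depends on the fit and is no bound.

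Some of the lncRNAs lie close together. With gaps of at most 50000 bases, 7 stretches held 3 or more of them. Those whose lncRNAs share a direction are described here without a test, since for lncRNAs above 5 TPM in 1 line only the threshold chose that direction. On 3R (16208192 to 16223854) CR45639, CR45642, CR45641 and CR45643, all above 5 TPM in S2-DRSC only, had log2 differences of -4.91 to -1.40. CR45642, for instance, had 0.340, 0.250, 0.350 and 0.970 TPM in D17-c3, and 12.5, 10.2, 14.3 and 11.8 TPM in S2-DRSC. On 3L (813300 to 830190) CR44537, CR43883 and CR45184, all above 5 TPM in both lines, were higher in S2-DRSC, from -3.86 to -1.22. Elsewhere on 3L (11349395 to 11384258) CR45251, above 5 TPM in both lines, and CR45036 and CR42755, above it in D17-c3 only, had log2 differences of 3.33 to 6.35. CR45036, opposite CG6163, had 20.0, 13.6, 16.8 and 25.8 TPM in D17-c3, and 0.350, 0.450, 0.460 and 0.450 TPM in S2-DRSC. The protein-coding gene CG6163 in this stretch averaged 64.7 ± 18.9 TPM in D17-c3 and 5.30 ± 0.825 TPM in S2-DRSC (log2 3.38 ± 0.24, adjusted p = 1.10e-06). The other 4 stretches held lncRNAs of mixed direction or without a call.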

How the data were processed

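Polyadenylated RNA of 4 flasks per line was sequenced as stranded mRNA libraries, per the labels' protocols. The submitters' processing notes list these tools, with no role for any: RSEM, DESeq2 1.30.1, featureCounts in Subread 2.0.0, STAR 2.7.3a and Trim Galore 0.6.4, and the builds dm6 and BDGP6. The strand setting of the counting is not stated. Per the file headers, the authors deposited tables of gene length, effective length, expected counts, TPM and FPKM, 1 for each library. Between 16.8% and 18.2% of the deposited expected counts were not whole. FPKM values deposited by the authors entered no test.

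After rounding, expected counts of 11606 genes passing filterByExpr were tested with edgeR 4.0.16 by quasi-likelihood, with TMM factors, Benjamini-Hochberg adjustment and a threshold of 0.05. An SE is the log2 fold change divided by the root of F. Log2 lengths were tested with limma 3.58.1. Both tests were checked on simulated data. In simulated counts 16.7% of 1.41-fold, 87.0% of 2-fold and 100% of 4-fold changes were called, so small differences are often missed. In simulated lengths 97.5% of 1.5-fold changes were called. The simulated counts had the same biological spread for every gene and no library that stood apart, unlike the data. Replicates differed by more than sampling noise (chi-square per degree of freedom 6.81 or more). Floors of 3 counts and 95% exact intervals cover counting error only. Ensembl's BDGP6 annotation gave positions and overlaps for all 172 members. Alternatives were other size factors, filters, DESeq2 1.42.0, limma on log2(TPM + 1) and log2(TPM + 0.1), a replicate block, leaving out each library, other membership thresholds and no overlapping members. Promoter sequences were not used here.

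The members, gene lists and tests were chosen with earlier results of these data known. Named are the 10 most abundant members per line, the 6 with the largest fold change per direction, the 4 per direction among members above 5 TPM in both lines, members with a name other than a CR number, the 3 genes on each side of the threshold, neighbours of the 6 per direction, and the 2 called genes per direction of each list. Other names were chosen after their values were seen.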

Additional observations from a re-analysis of the deposited data

Results flagged for a closer look

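In 7 of 76 groups of 4 libraries that were checked, 1 library stood apart from the other 3 by more than the 95% critical value for the gap over the range. For independent groups chance gives about 1 in 20, but these groups share the same libraries and many genes were named for their values. The rates are thus not compared, and CR43857 entered the set through the library flagged for it. In D17-c3 replicate 2, Hsromega had 1392.19 TPM, against a mean of 495 TPM in the other D17-c3 libraries. The alphagamma-element RNA had 239.68 TPM there, against 51.9 TPM, CR43857 had 21.95 TPM, against 4.04 TPM, and CR45334 had 58.71 TPM, against 40.9 TPM. CR46123 had 51.08 TPM in D17-c3 replicate 3, against 64.6 TPM in the other D17-c3 libraries. In S2-DRSC, CR43855 had 33.65 TPM in replicate 4, against 22.3 TPM, and CR46194 had 5.98 TPM in replicate 2, against 5.12 TPM.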

How the results depend on the processing

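The counts of members called for D17-c3 (91) and for S2-DRSC (53) moved with the membership rule, which also changes the size of the set. With members of 2 TPM or more (279 genes, 276 tested) 150 were called for D17-c3 and 74 for S2-DRSC, 127 and 60 by 2-fold. With 10 TPM or more (104 genes) 55 were called for D17-c3 and 32 for S2-DRSC, 44 and 25 by 2-fold. Without members that overlap another gene (76 genes) the counts were 44 and 22, and 38 and 20 by 2-fold. Other size factors, filters and tests moved no count by over 1.5 times. Leaving out 1 library gave 86 to 95 for D17-c3 and 51 to 55 for S2-DRSC, with 71 to 74 and 42 to 43 by 2-fold. For length, without a minimum ratio 10 members were longer in D17-c3 and 6 were longer in S2-DRSC, while leaving out 1 library gave 2 to 3 and 0 to 2. With the replicate number as a block, 90 members were called for D17-c3 and 51 for S2-DRSC, 73 and 42 by 2-fold. In that setting 2 and 1 had longer transcripts. Deviations of same-numbered libraries correlated at 0.04, 0.20, -0.14 and 0.07. Weak correlations do not exclude a shared effect on some genes, so they cannot tell if the numbers pair the flasks. The summed heat shock list was highest in replicate 2 of both lines.

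Of the fold changes of 43 genes followed under the alternatives, 668 values stayed on their side of the threshold, 8 lost a call and 9 gained one, and 0 called values reversed; uncalled genes such as CR43264, CR43857 and CR43334 changed sign in some settings. CR44285 lost its call in 7 settings (-0.87 to -0.44) and the alphagamma-element RNA without S2-DRSC replicate 4 (1.35). CR31044 gained one in 7 (-0.47 to -0.37) and CR43334 on both TPM scales (-0.69 and -0.78). Beyond the rules that define the sets, the causes were not tested. Depth limits genes near 0 in 1 line, whose fitted folds depend on a few counts.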
